A study of Homo sapiens with 6 samples.

Results

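The nuclear RNA polymerase subunit genes were examined in K562 cells, a human line from chronic myelogenous leukemia that grows in suspension and has erythroid features. The members are the protein-coding genes whose GENCODE symbol begins with POLR1, POLR2 or POLR3, which gave 34 genes under 33 symbols out of 37192 matched genes, 18937 of them protein-coding. There were 8 POLR1 genes, 16 POLR2 genes (POLR2J3 being annotated as 2 genes) and 10 POLR3 genes. The study collected 2 PRO-seq libraries, which record engaged polymerases through their nascent RNA, and 4 total RNA-seq libraries made after rRNA depletion, which record steady-state RNA. All 6 came from the same untreated source of cells, so the groups differ in assay alone, and p-values measure the spread between libraries, which may be technical. The question addressed is how the RNA level of each subunit gene compares with its transcription, given as a relative half-life, the ratio of RNA-seq to PRO-seq. The paper states that the PRO-seq signal depends on elongation rate as well as on transcription rate. Elongation rate was not corrected for here. The paper based its main analyses on earlier published K562 libraries, whose half-life estimates it found less variable and closer to those of other studies. When comparing PRO-seq with RNA-seq, it reports similar results from its own new libraries, which are the ones used here.

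Eukaryotic nuclei hold 3 RNA polymerases. Pol I makes the large ribosomal RNA precursor, Pol II makes mRNAs and many noncoding RNAs, and Pol III makes tRNAs, 5S rRNA and other short RNAs. Each is a complex around a pair of large catalytic subunits, with a set of small subunits common to all of them, an assembly pair common to Pol I and Pol III, and further subunits of its own. The mRNAs of all subunits are themselves made by Pol II. The prefix of a symbol does not always give the enzyme: POLR2E, POLR2F, POLR2H, POLR2K and POLR2L encode the subunits that all of the enzymes contain, and POLR1C and POLR1D encode the subunits that Pol I shares with Pol III.

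Sequence just before the gene start was compared among the members, since these genes all depend on Pol II promoters. RefSeq windows on GRCh38.p14, from 250 bases before the start to 50 bases after it, were matched for 24 of the 33 symbols and numbered 30, as some genes have more than 1 start. The letters CCGGAAG, the core of the sites that ETS factors are known to bind, stood on either strand in 11 of the 30 windows (36.7%), belonging to 9 of the 24 genes, against 12.8% of the 22199 windows of all protein-coding genes. Of the sites wholly before the start, only some are printed. Examples from POLR1B, POLR2C, POLR3A and POLR3C are given on the strand of the gene, with these letters or their reverse complement in capitals.
POLR1B, chr2:112541899-112541928, plus strand: aggcctccagtCCGGAAGatgcgacgaggt
POLR2C, chr16:57462643-57462672, plus strand: tcgctgactgaCTTCCGGtgttggcggtgg
POLR3A, chr10:78029588-78029617, minus strand: aaaaaggcatgCCGGAAGtctctcttgaca
POLR3C, chr1:145824164-145824193, plus strand: aaagagcgtccCCGGAAGccgccgaaactc
The letters began 126, 25, 91 and 25 bases before the start of POLR1B, POLR2C, POLR3A and POLR3C. The other genes with a match were POLR1C, POLR2D, POLR2F, POLR2J2 and POLR2M. The remaining motifs were searched on both strands in the same windows, and none of the motifs contains another. The GC box GGGCGG stood in 21 windows (70.0%, against 56.3% of all), CCAAT in 6 (20%, against 34.7%) and the TATA sequence TATAAA in 1, that of POLR2M (3.33%, against 9.47%). The E-box CACGTG stood in 4 windows (13.3%, against 8.34%), those of POLR1G, POLR3A, POLR3C and POLR3E. GCATGCGC, known as the NRF1 site, stood in 5 (16.7%, against 3.74%), and ATGGCGG, known from YY1 sites, in 3 (10.0%, against 6.99%). TGACGTCA stood in 1 window, that of POLR1H (against 2.26%), and ACTACAA in 1, that of POLR2E (against 2.84%). These matches describe letters only, and the motifs were chosen with the members known.

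The RNA-seq libraries held between 5732780 and 9002746 counts on transcription units (TUs), and the PRO-seq libraries held 6993816 and 7245632. The members took 0.317% to 0.319% of the RNA-seq counts and 0.188% and 0.193% of the PRO-seq counts. RNA-seq replicates 1 and 3, and replicates 2 and 4, were closer to each other than to the others, with a chi-square per degree of freedom of 1.11 and 1.12 against 1.74 to 2.11 for the other pairs. The labels do not say what these pairs share. Both pairs differed by more than sampling noise (chi-square test, p = 3.9e-17 and 3.2e-19), which does not show whether their libraries are independent. The 4 libraries were counted as 4, and counts with the close pairs summed are given below. The erythroid genes fixed as markers of K562 were present, with all 8 between 28.4 and 6287 RNA-seq TPM. Among the markers of other blood cells that were matched, CD3E, CD79A and MS4A1 were at 0.324 TPM or less, whereas CD3D was at 109 TPM, and both matched epithelial markers, EPCAM and KRT18, were at 120 and 789 TPM. The part of other cell types in the results was not tested.

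TPM was computed with exon length for RNA-seq and with the span of the TU minus 1000 bp for PRO-seq, so that levels can be compared between genes. Half-life was taken for TUs whose PRO-seq level exceeded 10 TPM and whose RNA-seq level exceeded 1 TPM, and was expressed on the log2 scale against the median mRNA, so that 0 is the median of 8733 mRNAs. Of the 34 members, 30 passed these minimums: all 8 POLR1 genes, 13 POLR2 genes and 9 POLR3 genes. POLR2J2, both POLR2J3 genes and POLR3GL did not pass. Only 1 transcript was counted per gene. For 25 members that transcript held at least 90% of the exon bases of the reference transcript (MANE Select, or Ensembl canonical) and spanned at most 1.5 times its length. The other 9 were POLR1B, POLR1C, POLR1D, POLR1H, POLR2F, POLR2L, POLR2M and both POLR2J3 genes, and this limit is given beside their values.

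The medians of the 3 groups of genes lay closer together in PRO-seq than in RNA-seq. The median PRO-seq level was 69.3 TPM over the 8 POLR1 genes, 62.3 TPM over the 13 POLR2 genes and 80.4 TPM over the 9 POLR3 genes, against 47.5 TPM over the 8733 mRNAs. The median RNA-seq level was 58.9 TPM for the POLR1 genes, 138 TPM for the POLR2 genes and 33.2 TPM for the POLR3 genes, against 31.2 TPM for all mRNAs. The POLR2 genes thus had the lowest median in PRO-seq and the highest in RNA-seq, and the POLR3 genes had the highest in PRO-seq and the lowest in RNA-seq.
This order was the same in every library, but the PRO-seq order turned under alternatives. With the higher minimums of 20 and 2 TPM the POLR1 genes had the lowest PRO-seq median (6.26 on the log2 scale, against 6.28 for POLR2), and over transcripts holding the reference they had the highest (6.40, against 6.33 for POLR3). With the subunits of Pol II alone, the RNA-seq median of 138 TPM became 84.0 TPM over 7 genes. The POLR2 median was 131 to 141 TPM over the 4 RNA-seq libraries, the POLR1 median 57.9 to 60.3 TPM and the POLR3 median 32.2 to 34.4 TPM. In PRO-seq the POLR3 medians of 78.4 and 82.4 TPM lay above the POLR1 medians of 68.3 and 70.3 TPM and the POLR2 medians of 61.7 and 62.9 TPM. These ranges describe the libraries. Among the POLR2 genes past the minimums, RNA-seq levels ran from 15.9 to 467 TPM.

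**Figure D1:**
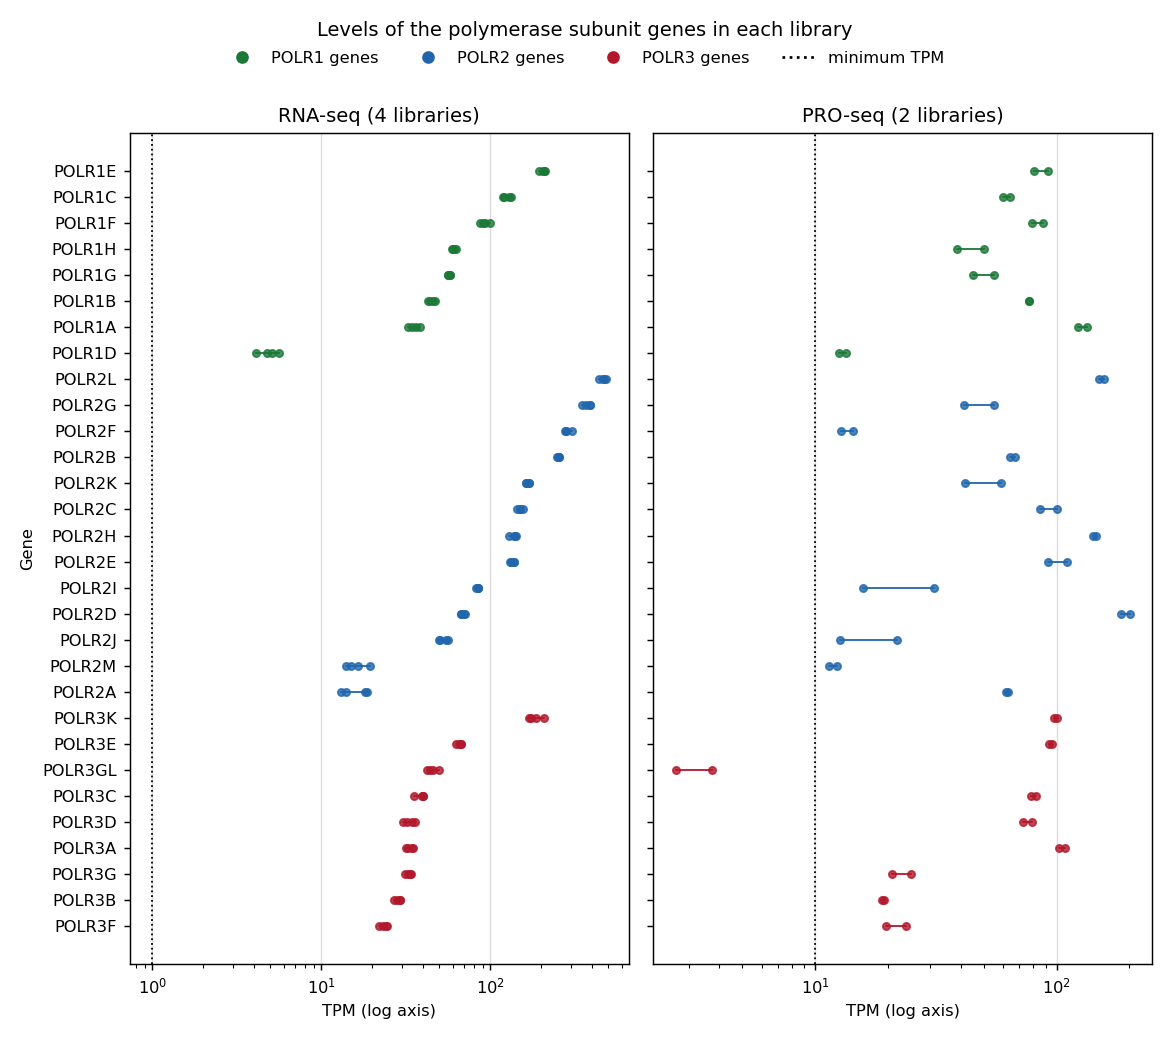
TPM (log axis) of 30 members above 3 RNA-seq TPM in the 4 RNA-seq libraries (left) and the 2 PRO-seq libraries (right), 1 point per library with a line over their range, and dotted lines at the minimums of 1 and 10 TPM. POLR2L is highest in RNA-seq and POLR2D in PRO-seq, and POLR3GL lies below the PRO-seq minimum.

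In relative half-life the POLR2 genes stood highest and the POLR3 genes were spread on both sides of the median mRNA. The median log2 half-life was 0.80 for the POLR1 genes, 2.25 for the POLR2 genes and 0.12 for the POLR3 genes. The SD of these medians over the 8 combinations of 1 RNA-seq with 1 PRO-seq library was 0.04, 0.12 and 0.04. For POLR2 all of these combinations, from 1.81 to 2.12, lay below the value from summed libraries. By the quasi-likelihood test of edgeR, adjusted over 10053 TUs by the Benjamini-Hochberg method, 21 of the 30 members were above the median mRNA and 9 were below it. Among all TUs 40.0% were called above and 50.4% below, and among mRNAs alone 45.4% were above and 44.9% below. With the close RNA-seq pairs summed to 1 library each, 20 members were above and 8 below.
Since most mRNAs are called on one side or the other, a test of a difference of more than 2-fold was also run. It called 13 members above and 3 below, against 24.3% of the mRNAs above and 23.2% below. By the first test, 5 POLR1 genes were above and 3 below, 11 POLR2 genes were above and 2 below, and 5 POLR3 genes were above and 4 below. By the test of a 2-fold difference the counts were 2 above and 1 below for POLR1, 8 above and 1 below for POLR2, and 3 above and 1 below for POLR3. No test of a difference between the groups of genes was made.
The POLR2 median depends on which genes enter it. It was 1.79 over the 10 genes whose counted transcript holds the reference (a selection made after seeing the data), and 1.78 without POLR2J. With each enzyme's own subunits alone, the medians were 0.80 for 6 Pol I genes, 2.25 for 7 Pol II genes and 0.12 for 9 Pol III genes. The POLR3 median fell to -0.18 when the PRO-seq minimum was raised to 20 TPM and the RNA-seq minimum to 2 TPM.

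**Figure D2:**
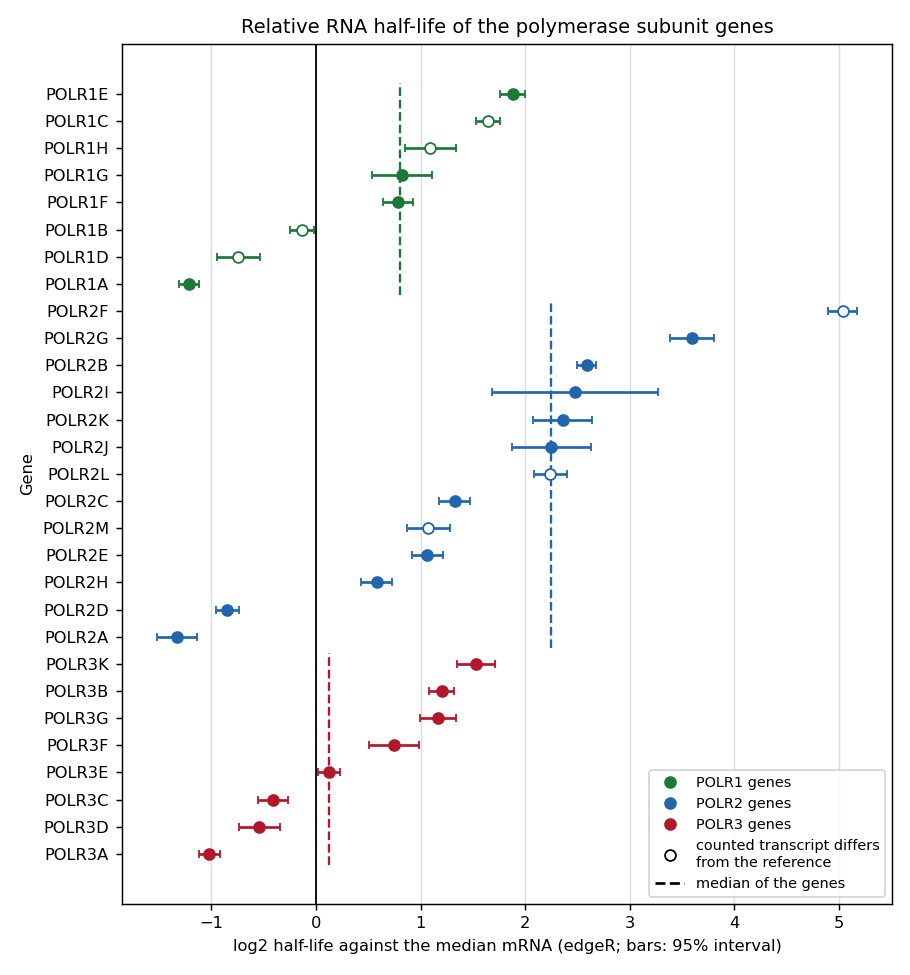
Log2 half-life of 29 members past the minimums against the median mRNA (edgeR, with 95% intervals), with dashed lines at the median of each group of genes and open points where the counted transcript differs from the reference. POLR2F lies highest at 5.04, and POLR1A, POLR2A and POLR3A lie below -1.

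The largest subunits, which carry the catalytic site together with the second largest ones, had low RNA levels relative to their PRO-seq levels, the lowest of their groups in Pol I and Pol II. POLR2A encodes the largest subunit of Pol II, whose C-terminal repeats coordinate elongation and RNA processing, and lies at chr17:7484366-7514616 on GRCh38. Its RNA-seq level was 18.6, 14.1, 18.1 and 13.0 TPM in replicates 1 to 4, and its PRO-seq level was 61.7 and 62.9 TPM. Replicates 1 and 3 were the high ones, in the same close pairs as above. Its log2 half-life was -1.33 (SE 0.10, adjusted p = 1.2e-13 by edgeR), and it was below by more than 2-fold (adjusted p = 0.00039).
POLR1A, the largest subunit of Pol I (chr2:86020216-86105886), was at 36.4, 32.8, 38.4 and 34.5 TPM in RNA-seq and at 122.5 and 133.8 TPM in PRO-seq. That is the highest PRO-seq level among the POLR1 genes and the second lowest RNA-seq level. Its log2 half-life was -1.22 (SE 0.05, adjusted p = 2.2e-20 by edgeR), below by more than 2-fold (adjusted p = 2.3e-05).
POLR3A, the largest subunit of Pol III (chr10:77975149-78029515), was at 34.8, 31.6, 34.3 and 32.5 TPM in RNA-seq and at 102 and 108 TPM in PRO-seq. It too had the highest PRO-seq level of its group. Its log2 half-life was -1.02 (SE 0.05, adjusted p = 1.2e-17 by edgeR), and it did not pass the test of a 2-fold difference (adjusted p = 0.27). The counted transcripts of all of these genes held the whole reference transcript, and no other counted TU overlapped them. For POLR1A and POLR3A it was the reference itself. For POLR2A it was another transcript, annotated without a defined coding sequence, with 93.5% of its exon bases in the reference.

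The second largest subunits did not follow their partners. POLR2B, which forms the active center together with POLR2A (chr4:56978896-57031158), was at 249, 252, 254 and 255 TPM in RNA-seq and at 66.8 and 63.8 TPM in PRO-seq. The 4 RNA-seq values lay close together, and the log2 half-life was 2.59 (SE 0.04, adjusted p = 1.2e-29 by edgeR). Its PRO-seq level was 1.01 and 1.08 times that of POLR2A in the 2 libraries, whereas its RNA-seq level was 13.4 to 19.6 times that of POLR2A. The subunits join in the enzyme in equal number, and their genes had nearly equal PRO-seq levels here with very different RNA levels.
POLR3B, its counterpart in Pol III, was at 29.2, 27.0, 29.1 and 28.0 TPM in RNA-seq and at 18.9 and 19.3 TPM in PRO-seq. In this pair the contrast lay in the PRO-seq level, where POLR3A exceeded POLR3B by 5.37 and 5.61 times. In RNA-seq POLR3A exceeded POLR3B by 1.16 to 1.19 times. The counted TUs spanned 54367 bp for POLR3A and 152451 bp for POLR3B, and the part of elongation rate was not tested. The log2 half-life of POLR3B was 1.20 (SE 0.06, adjusted p = 2.3e-17 by edgeR).
POLR1B, its counterpart in Pol I, was at 42.7, 46.8, 44.2 and 45.9 TPM in RNA-seq and at 76.6 and 76.5 TPM in PRO-seq. POLR1A was at 1.60 and 1.75 times its PRO-seq level and at 0.700 to 0.868 times its RNA-seq level. Its log2 half-life of -0.13 (SE 0.06, adjusted p = 0.036 by edgeR) lay close to the median mRNA. The call was lost without RNA-seq replicate 1 or 3 or without either PRO-seq replicate (adjusted p from 0.064 to 0.14 by edgeR). It was also lost with the close RNA-seq pairs summed and with a block for libraries numbered 1 and 2 (adjusted p = 0.066 and 0.098 by edgeR). DESeq2 did not call it either (adjusted p = 0.096). The value turned to 0.53 when every TU with at least 1 summed count entered, where the median mRNA itself is lower. The transcript counted for POLR1B held 58.6% of the reference exon bases.

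**Figure D3:**
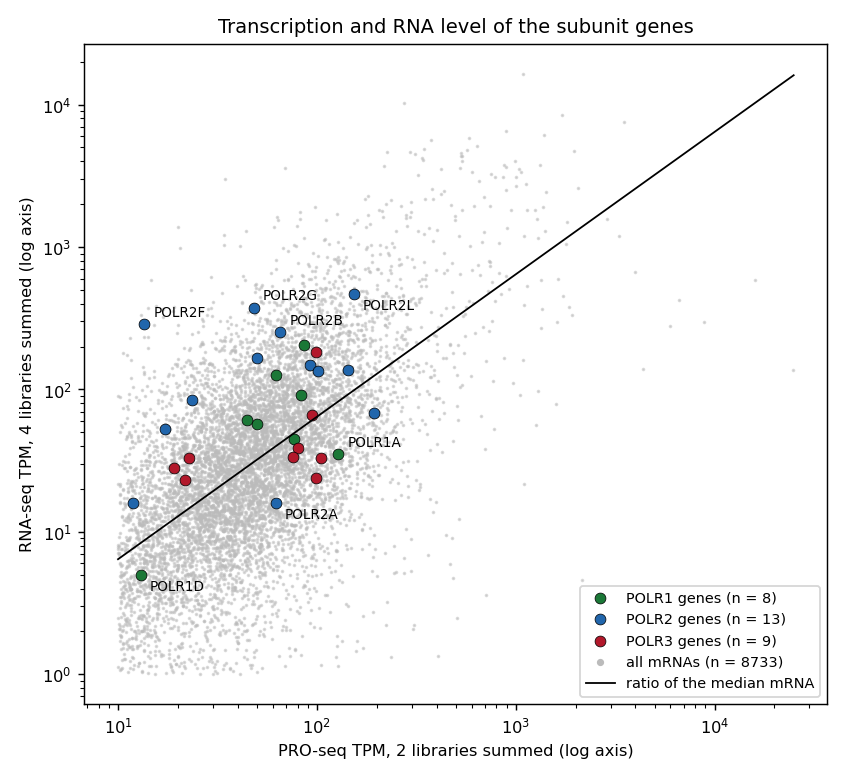
RNA-seq TPM against PRO-seq TPM (log axes, libraries summed) for the 30 members past the minimums and for 8733 mRNAs in gray, with a line at the ratio of the median mRNA. POLR2A and POLR2B share a PRO-seq level near 62.3 and 65.3 TPM and lie on opposite sides of the line.

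The remaining Pol I genes were mostly above the median mRNA. POLR1E, which with POLR1G forms a pair that resembles general initiation factors of Pol II, had the highest RNA-seq level and half-life of the POLR1 genes. It was at 195, 206, 207 and 210 TPM in RNA-seq and at 80.6 and 91.7 TPM in PRO-seq, with a log2 half-life of 1.88 (SE 0.06, adjusted p = 1.9e-22 by edgeR). Its RNA exceeded that of its partner POLR1G by 3.37 to 3.75 times, and its PRO-seq level by 1.66 and 1.79 times.
POLR1F, a subunit of the Pol I stalk, and POLR1G had log2 half-lives of 0.79 (SE 0.07) and 0.82 (SE 0.15), both above the median mRNA. POLR1G lies across a neighbor on the other strand, which overlaps 56.4% of its exon bases and 93.9% of its PRO-seq window, and its PRO-seq counts were 36 and 45. POLR1H, a small zinc-binding subunit, was at 1.09 (SE 0.12), counted on a transcript 1.7 times as long in span as the reference. That transcript is annotated as a retained intron, and 23.2% of its 3672 bp of exons lie in the reference.
The subunits common to Pol I and Pol III lay on opposite sides of the median mRNA. POLR1C was at 118 to 133 TPM in RNA-seq and at 60.1 and 64.1 TPM in PRO-seq, with a log2 half-life of 1.65 (SE 0.06). POLR1D was at 5.66, 5.09, 4.09 and 4.80 TPM in RNA-seq, the lowest of the members past the minimums, and at 13.4 and 12.5 TPM in PRO-seq, with a log2 half-life of -0.74 (SE 0.10). The call of POLR1D was lost with every TU of at least 1 summed count (-0.08, adjusted p = 0.51 by edgeR), whereas in its other alternatives the adjusted p lay under 0.05 except in the test of a 2-fold difference. Neither value is that of the reference transcript. The transcript counted for POLR1C spanned 10.2 times the reference, with 89.3% of its PRO-seq window overlapped on the other strand, and that for POLR1D held 17.0% of the reference exon bases and spanned 78.5 times the reference.

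The subunits common to all of the enzymes had the most abundant RNAs as a group. The median over the 5 genes was 166 TPM in RNA-seq and 101 TPM in PRO-seq, and all 5 were above the median mRNA, 3 of them by more than 2-fold, against 45.4% and 24.3% of all mRNAs. POLR2L, a small zinc-binding subunit, was the highest in RNA-seq of all members, at 486, 470, 465 and 440 TPM, with 157 and 150 TPM in PRO-seq. Its log2 half-life was 2.24 (SE 0.08), on a transcript holding 38.2% of the reference exon bases.
POLR2E was the lowest of the 5 in RNA-seq, at 138, 138, 131 and 133 TPM, with 91.7 and 110 TPM in PRO-seq and a log2 half-life of 1.06 (SE 0.08). POLR2H overlapped it in RNA-seq, at 129 to 141 TPM, with a higher PRO-seq level of 141 and 145 TPM and a log2 half-life of 0.58 (SE 0.08). POLR2K was at 162 to 169 TPM in RNA-seq and at 58.8 and 41.7 TPM in PRO-seq, with a log2 half-life of 2.36 (SE 0.14). The RNA-seq levels of these genes thus lay close together, while their PRO-seq levels did not.
POLR2F had the highest log2 half-life of all members, 5.04 (SE 0.07, adjusted p = 1.2e-31 by edgeR). It was at 303, 282, 276 and 281 TPM in RNA-seq and at 12.8 and 14.3 TPM in PRO-seq. The counted transcript had 582 bp of exons over a span of 87410 bp, 5.6 times the reference span, and held 18.5% of the reference exon bases. POLR2F is among the members without the reference transcript, and its value is that of the counted transcript.

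Among the other Pol II subunits, the pair that forms the stalk of the enzyme stood on opposite sides. POLR2G, which with POLR2D makes up this detachable stalk, was at 368, 391, 351 and 389 TPM in RNA-seq and at 55.2 and 41.3 TPM in PRO-seq. POLR2D was at 66.7, 71.0, 70.2 and 67.2 TPM in RNA-seq and at 185 and 201 TPM in PRO-seq, the highest PRO-seq level of any member. POLR2G was at 0.206 and 0.298 times the PRO-seq level of POLR2D and at 4.997 to 5.791 times its RNA-seq level.
The log2 half-life was 3.60 for POLR2G (SE 0.11, adjusted p = 2e-23 by edgeR) and -0.85 for POLR2D (SE 0.06, adjusted p = 7.9e-15 by edgeR). Both were counted on their reference transcripts, with no other counted TU over them. POLR2D did not pass the test of a 2-fold difference.
POLR2C, which pairs with POLR2J as the Pol II counterpart of the POLR1C and POLR1D pair, was at 144 to 156 TPM in RNA-seq and at 85.4 and 100 TPM in PRO-seq, with a log2 half-life of 1.33 (SE 0.08). POLR2I, a zinc-binding subunit at the jaw of the enzyme, had RNA-seq levels within 82.2 to 85.0 TPM but only 2 and 4 PRO-seq counts over the 490 bp left after trimming. Its log2 half-life of 2.47 had the largest SE of any member, 0.41. The value became 3.43 when 500 bp in place of 1000 bp was taken off the length, which divides the same counts by a longer length. The counted transcript had 54.6% of its exon bases in the reference. POLR2M, which associates with Pol II and is no core subunit, was at 14.1 to 19.3 TPM in RNA-seq and at 11.4 and 12.3 TPM in PRO-seq, with a log2 half-life of 1.07 (SE 0.11) on a transcript holding 26.5% of the reference exon bases.

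The POLR2J genes are near-identical copies on chromosome 7, and reads can be split or lost among them, so their values are uncertain. POLR2J was at 54.9, 49.9, 56.0 and 50.2 TPM in RNA-seq and at 21.8 and 12.7 TPM in PRO-seq, with a log2 half-life of 2.25 (SE 0.19). POLR2J2 had 3, 6, 3 and 4 RNA-seq counts, between 0.37 and 0.71 TPM. Of the POLR2J3 genes, one had 6, 4, 1 and 3 RNA-seq counts and the other had none.
None of the 3 had a PRO-seq count in either library, and a count of 0 allows up to 3 counts in a library. All of their PRO-seq windows were overlapped by other counted TUs on the same strand. Such intervals and limits cover counting error only.

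The Pol III subunits lay on both sides of the median mRNA in log2 half-life. POLR3K, a small subunit known for its part in termination, was the highest, at 169, 186, 174 and 207 TPM in RNA-seq and at 99.8 and 97.9 TPM in PRO-seq. Its log2 half-life was 1.53 (SE 0.09, adjusted p = 1.1e-15 by edgeR). The next POLR3 gene in RNA-seq, POLR3E, was at 63.0 to 67.3 TPM.
The subcomplex of POLR3C, POLR3F and POLR3G, which is specific to Pol III and acts in initiation, did not lie on 1 side. POLR3C was at 35.1 to 40.1 TPM in RNA-seq and at 78.4 and 82.4 TPM in PRO-seq, with a log2 half-life of -0.41 (SE 0.07), and POLR3F and POLR3G were at 0.74 (SE 0.12) and 1.17 (SE 0.09). POLR3D and POLR3E, which form the other subcomplex specific to Pol III, were at -0.54 (SE 0.10) and 0.12 (SE 0.05, adjusted p = 0.036 by edgeR). The call of POLR3E was lost without RNA-seq replicate 1, 2 or 3 or without either PRO-seq replicate (adjusted p from 0.053 to 0.13 by edgeR). It was also lost with the close RNA-seq pairs summed and with a block for libraries numbered 1 and 2 (adjusted p = 0.07 and 0.085 by edgeR). The same held with 500 bp removed and with minimums of 20 and 2 TPM (adjusted p = 0.12 and 0.14 by edgeR). DESeq2 did not call it either (adjusted p = 0.1). With every TU of at least 1 summed count, where the median mRNA itself is lower, POLR3C and POLR3D turned to 0.25 and 0.12.
In the order of RNA-seq levels, POLR3C with POLR3D, POLR3D with POLR3A, and POLR3A with POLR3G overlapped between libraries. In the POLR1 genes all 7 pairs of neighbors were apart, and in the POLR2 genes 10 of 12 were.

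POLR3G and POLR3GL are paralogs that take the same place in alternative forms of Pol III, POLR3G being known from stem and tumor cells and POLR3GL from differentiated ones. POLR3G was at 34.1, 33.5, 31.2 and 32.5 TPM in RNA-seq and at 24.9 and 20.8 TPM in PRO-seq. POLR3GL was at 44.1, 45.5, 41.9 and 49.9 TPM in RNA-seq and at 2.64 and 3.75 TPM in PRO-seq. The RNA of POLR3GL was 1.29 to 1.53 times that of POLR3G in every library, so both paralogs were present as RNA.
In PRO-seq, POLR3GL was at 0.106 and 0.180 times POLR3G, on 9 and 13 counts. Another counted TU on the same strand overlapped 95.9% of its PRO-seq window and 13.6% of its exon bases, and the part of this overlap in the low PRO-seq level was not tested.

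Members with longer exons had lower relative half-lives. Spearman's rank correlation between exon length and log2 half-life was -0.81 over the 30 members, -0.77 over the 23 that hold the reference transcript and -0.33 over the 8733 mRNAs. Over the same members, exon length had a rank correlation of -0.66 with RNA-seq TPM and 0.21 with PRO-seq TPM. These describe genes measured in the same libraries, and exon length divides the RNA-seq counts in TPM, so the measures share a term. POLR2B departs from the pattern, with 4108 bp of exons and a log2 half-life of 2.59.

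Genes that work with the polymerases were taken from lists made from textbook roles, and their counts stand against 45.4% of all mRNAs above the median mRNA and 44.9% below. Whether the counted transcripts of the listed genes hold the reference is not given. Of 8 Pol I factors, 3 were above the median mRNA and 3 below, with TAF1D the highest at 1.13 (SE 0.09) and TAF1C the lowest at -1.60 (SE 0.13), both subunits of the Pol I selectivity factor. TAF1D had 67 to 115 RNA-seq counts per library. Of 16 Pol III factors, 10 were above and 6 below, from SNAPC4, a subunit of the small nuclear RNA activating complex, at -2.04 (SE 0.07) to GTF3A, the 5S gene factor TFIIIA, at 3.01 (SE 0.08).
Of 7 Pol II initiation factors, 6 were above and 1 below, from GTF2A1 at -0.23 (SE 0.06) to GTF2A2 at 3.31 (SE 0.08), which encode the subunits of TFIIA. Of 10 genes for polymerase assembly and import, 7 were above and 3 below, from GPN2 at -1.84 (SE 0.06) to RUVBL2 at 3.44 (SE 0.05). The mitochondrial polymerase POLRMT was at 0.16 (SE 0.08, adjusted p = 0.055 by edgeR) and did not pass the test. The median log2 half-life was 0.10 for the Pol I factors, 0.58 for the Pol III factors, 1.54 for the Pol II initiation factors and 1.67 for the assembly genes, against 1.07 over the 30 members and 0 over all mRNAs.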

How the data were processed

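The authors deposited raw counts per transcript for each library, made with HTSeq on GENCODE annotations from reads that Cutadapt had trimmed and HISAT2 had placed on GRCh38. Of versions and strand setting, none is given in the sources used here. Transcripts were joined by identifier to GENCODE release 44 lifted to GRCh37 (88.1% of 42371), which supplied lengths. Rows naming no TU held 66.5% to 68.6% of RNA-seq records and 86.5% and 88.6% of PRO-seq records and were left out, as were 84 TUs too short for trimming.

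Counts were summed over libraries and converted to TPM, with 1000 bp in all taken off the length for PRO-seq. The alternative with 500 bp removed changed this length, and with it which TUs passed the minimums. It kept the deposited counts, and no reads were counted anew. Each TU was tested with edgeR 4.0.16 (R 4.3.3), by its quasi-likelihood test, two-sided, on the counts with TMM, length offsets, centering on the median mRNA and Benjamini-Hochberg adjustment at 0.05. DESeq2 1.42.0 was an alternative, and a 2-fold difference was tested with glmTreat. On simulated counts for RNA-seq against PRO-seq, 92% of the 200 TUs given a log2 change of 1 were recovered among 10053, with 11 false calls. In the data 40.0% of TUs were called above and 50.4% below, so these rates hold for the simulated setting only. Python 3.11.15 was used for other steps. Replicates 1 and 2 of the assays share only a number (correlation of their deviations -0.0067 over 9962 TUs).

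All members but 1, which is not reported here, were named; values in every library were given for the 2 largest subunits of each enzyme, the highest and lowest half-life in each group, paralogs, the shared subunits with the highest and lowest RNA-seq TPM and members below the minimums, and the highest and lowest of each companion list. Members and lists were chosen with earlier results of these data known.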

Additional observations from a re-analysis of the deposited data

Results flagged for a closer look

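Among the 4 RNA-seq libraries, the lowest or highest was compared with the range of the group for 32 members, and 1 had a library apart from the other three. POLR3C was at 35.1 TPM in replicate 3, below 39.3 to 40.1 TPM in the others. Chance alone marks about 1 in 20 such groups.

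Genes named after the subunits that are not protein-coding carried counts, which were used in no comparison. POLR1HASP, annotated as a pseudogene, had 292 RNA-seq counts and 1163 PRO-seq counts in all. POLR2J4, annotated as a lncRNA, had 27 RNA-seq and 113 PRO-seq counts. The processed pseudogenes POLR2MP1 and POLR3DP1 had 65 and 6 RNA-seq counts and no PRO-seq counts. Whether any of these reads came from the parent genes was not tested.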

How the results depend on the processing

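Counts of members above and below the median mRNA ranged from 20 to 21 and from 8 to 9 with any 1 library left out, and were 20 and 8 with DESeq2. With the replicate block on libraries numbered 1 and 2, which share only a number, they were 20 and 8. The test of a 2-fold difference gave 13 and 3 members, and 2141 and 2996 TUs. With every TU of at least 1 summed count, 5 members were below, 6671 TUs were above and 7880 below, out of 21100 tested. Of 415 values of single members under the alternatives, 380 kept their direction and side of the threshold, 32 lost the call and 3 turned. The 3 turned at 1 summed count, to 0.53 for POLR1B, 0.25 for POLR3C and 0.12 for POLR3D. Of the 32, 14 came from the 2-fold test, 10 from POLR3E, 7 from POLR1B and 1 from POLR1D (-0.08 at 1 summed count).

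The log2 ratio of the median mRNA, -0.64, was -0.86 with 500 bp removed, -0.62 with a pseudocount of 1 TPM, -1.27 at 1 summed count, -0.60 with minimums of 20 and 2 TPM, -0.67 over transcripts holding the reference, and -0.65 to -0.62 with 1 library left out. At 1 summed count every half-life is set against the lower median mRNA of -1.27 in place of -0.64, which raises all of them by the same amount. With 500 bp removed, the same counts are divided by a longer length, which alone would lower the PRO-seq level of a TU. TPM is then scaled to a fixed total, so each level also depends on the lengths of the other TUs. The median ratio fell from -0.64 to -0.86, and the part of each step in this was not tested. The POLR1 half-life was 0.89 with 500 bp removed and 1.43 at 1 summed count. The POLR2 half-life was 2.87 at 1 summed count, 1.74 with the higher minimums, 1.78 without POLR2J, 1.79 over transcripts holding the reference (chosen after seeing the data) and 1.89 to 2.27 with 1 library left out. The POLR3 half-life was 1.06 at 1 summed count, where POLR3GL also entered it, and turned to -0.18 with the higher minimums, which removed POLR3B from it.

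On the log2 scale, the median POLR1 RNA-seq TPM (5.88) was 5.93 with the higher minimums and 6.18 over transcripts holding the reference, and the PRO-seq TPM (6.11) was 6.36 with 500 bp removed, 6.26 with the higher minimums, 6.32 for Pol I subunits alone and 6.40 over transcripts holding the reference. For POLR2, RNA-seq TPM (7.11) was 7.16 with the higher minimums or without POLR2J and 6.39 for Pol II subunits alone, and PRO-seq TPM (5.96) was 6.21 with 500 bp removed, 5.98 with a pseudocount, 6.28 with the higher minimums, and 5.996 without POLR2J or over transcripts holding the reference. For POLR3, RNA-seq TPM (5.05) was 5.10 with a pseudocount, and PRO-seq TPM (6.33) was 6.57 with 500 bp removed, 6.29 at 1 summed count and 6.44 with the higher minimums. Where no construction is named, the cause was not tested. Depth limits POLR2I, with 2 and 4 PRO-seq counts, and POLR3GL, with 9 and 13.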
